A study of Mus musculus with 9 samples.

Results

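The genes followed here, 10 in number, belong to a single chemotactic system in mouse heart: the CC chemokines Ccl2, Ccl3, Ccl4, Ccl6, Ccl7, Ccl8, Ccl9 and Ccl12, and the receptors Ccr1 and Ccr2. They were picked by gene symbol, and all 10 were found among the 54532 genes of the count table. CC chemokines are small secreted proteins with a pair of adjacent cysteines, which draw leukocytes towards their source through G protein-coupled receptors. Ccr2 marks the inflammatory monocytes that leave bone marrow and enter injured myocardium, and Ccr1 is carried by monocytes and neutrophils. In an infarcted heart these ligands come from macrophages, endothelial cells, fibroblasts and the leukocytes that have already arrived.

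RNA of whole heart tissue was sequenced from 3 groups of 3 male C57BL/6J mice, all wild type and 8 to 10 weeks old. Sham mice had the chest opened and a thread passed under the left anterior descending coronary artery without tying it. MIRI mice, for myocardial ischemia/reperfusion injury, had that artery tied for 30 min and then released for 24 h, and received saline. GXNI mice had the same injury and received Guanxinning injection, a Chinese herbal injection, at 9 mL/kg into the tail vein. All groups had the operation and a tail vein injection, and each library was 1 animal. The libraries held between 17119454 and 22811295 counts, so that 3 counts correspond to 0.132 to 0.175 CPM (counts scaled to a common library size after TMM normalization). The labels give the cell type as cardiomyocytes, yet the tissue is heart. Summed endothelial markers reached 541 to 1015 CPM and macrophage and monocyte markers 307 to 969 CPM, beside 35086 to 54110 CPM for cardiomyocyte markers.

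No library labelled MIRI or GXNI was closest to another library of its own group. Across all genes, MIRI 2 was closest to GXNI 1 (Spearman's rho 0.978) and GXNI 3 was closest to MIRI 3 (rho 0.985), while each sham library was closest to another sham library. GXNI 1 was closest to sham 1 (rho 0.982), GXNI 2 to MIRI 1 (rho 0.976), and MIRI 1 and MIRI 3 to GXNI 3 (rho 0.984 and 0.985). The fold changes tabulated with the study correspond to a grouping in which MIRI 2 and GXNI 3 had changed places. The comparisons of MIRI with sham, GXNI with MIRI and GXNI with sham hearts are therefore given for the 10 genes under the deposited labels and, beside them, with MIRI 2 and GXNI 3 exchanged. The comparison of all 6 injured hearts with the 3 sham hearts does not depend on this.

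The ligand genes lay beside their relatives on chromosome 11 (mm10). Ccl2, Ccl7, Ccl12 and Ccl8 stood in that order on the forward strand from 82035571 to 82116799. Ccl9, Ccl6 and Ccl3 on the reverse strand and Ccl4 on the forward strand stood between 83572919 and 83664683, 1456 kb further on. Ccr1 and Ccr2 were 133 kb apart on chromosome 9. The coding sequences were well separated for counting: the most alike pair, Ccl8 and Ccl12, had 70.5% identical bases, and 0 of 29 pairs of ligands or of receptors shared an exact run of 50 bases in their transcripts.

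The upstream sequences of 4 ligands are shown because they form pairs of neighbouring genes. Ccl12 and Ccl8 are neighbours, 11.8 kb apart, whose levels followed different orders of the libraries. Ccl9 and Ccl6 are neighbours, 9.25 kb apart, whose levels moved together. Each is the 150 bases before the transcription start (RefSeq, GRCm38.p6), written 5′ to 3′ on the strand of the gene. Capitals mark the TATA box letters TATAAA and, in Ccl9, a match to the NF-kappa-B motif.
Ccl12, chr11:82101695-82101844, forward strand: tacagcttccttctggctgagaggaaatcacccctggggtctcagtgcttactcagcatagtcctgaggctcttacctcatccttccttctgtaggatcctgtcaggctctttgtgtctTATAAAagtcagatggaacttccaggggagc
Ccl8, chr11:82115035-82115184, forward strand: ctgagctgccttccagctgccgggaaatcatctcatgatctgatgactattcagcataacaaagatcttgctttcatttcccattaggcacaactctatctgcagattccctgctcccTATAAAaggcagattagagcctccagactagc
Ccl9, chr11:83578637-83578786, reverse strand: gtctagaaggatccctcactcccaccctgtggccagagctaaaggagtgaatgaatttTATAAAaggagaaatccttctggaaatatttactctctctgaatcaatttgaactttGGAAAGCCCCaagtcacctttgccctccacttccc
Ccl6, chr11:83593088-83593237, reverse strand: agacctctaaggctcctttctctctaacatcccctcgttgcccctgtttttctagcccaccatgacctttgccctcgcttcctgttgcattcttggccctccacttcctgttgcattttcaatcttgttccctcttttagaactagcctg

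A RefSeq promoter, 250 bases before to 50 after the start, was at hand for 7 of the 10 genes (Ccl3, Ccl6, Ccl8, Ccl9, Ccl12, Ccr1 and Ccr2). TATAAA, searched on the strand of the gene, began at position -31 in Ccl12, -32 in Ccl8 and -92 in Ccl9, and was held by 8.88% of all 27025 promoters. The NF-kappa-B motif, searched on both strands, began at -35 in Ccl9 and -74 in Ccr1 and was held by 8.18% of promoters. The AP-1 letters TGACTCA and TGAGTCA, searched on both strands and held by 5.17%, were found in 0 of the 7. Over the 250 bases before the start, Ccl12 and Ccl8 were the most alike of 21 pairs, with 54.0% identical columns, while the others ranged from 38.5% to 45.8%. Ccl6 and Ccl9 had 42.0%.

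Ccl2 was the ligand whose level varied most among the well counted ones, and it was high in 4 injured hearts and at sham level in the other two. Ccl2, also called MCP-1, is the main ligand of Ccr2 and draws monocytes into tissue. Ccl2 (ENSMUSG00000035385, chr11:82035571-82037453) stood at 1.61, 4.21 and 6.23 CPM in sham hearts. It stood at 84.6, 3.98 and 75.5 CPM in MIRI 1 to 3 and at 2.90, 44.9 and 149 CPM in GXNI 1 to 3. MIRI 2 and GXNI 1 lay within the sham range and the other 4 injured hearts lay above all sham hearts, with 92.5 times between the highest and the lowest library. Its group means were 4.02 ± 2.32 CPM in sham, 54.7 ± 44.2 in MIRI and 65.6 ± 75.2 in GXNI hearts (SD, n = 3 each). An annotated antisense gene that overlaps Ccl2, Gm17268, had 0 counts in every library.

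Ccl7 and Ccl12, the other monocyte chemoattractant proteins that act on Ccr2, followed the same libraries with a smaller span. Ccl7 (ENSMUSG00000035373, chr11:82045712-82047525), or MCP-3, stood at 2.36, 7.13 and 10.7 CPM in sham, 43.4, 3.68 and 38.3 CPM in MIRI, and 7.59, 29.9 and 69.7 CPM in GXNI hearts. Ccl12 (ENSMUSG00000035352, chr11:82101845-82103400), or MCP-5, a ligand of rodents, stood at 1.503, 5.84 and 5.06 CPM in sham, 15.1, 1.13 and 10.03 CPM in MIRI, and 4.74, 11.6 and 15.2 CPM in GXNI hearts. Both were above every sham heart in the same 4 injured hearts as Ccl2, MIRI 1, MIRI 3, GXNI 2 and GXNI 3. In MIRI 2, Ccl12 was lower than in any sham heart.

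Ccl8 followed another order of the libraries, though like Ccl12 it was next to highest in MIRI 1 and lowest in MIRI 2. It is named MCP-2 and acts in the mouse mainly on Ccr8. Ccl8 (ENSMUSG00000009185, chr11:82115185-82116799) stood at 0.966, 1.58 and 1.49 CPM in sham, 1.64, 0.356 and 0.600 CPM in MIRI, and 2.10, 1.13 and 0.406 CPM in GXNI hearts. These levels rest on 6 to 42 counts. Ccl8 was highest in GXNI 1, a heart at sham level for Ccl2, and next to lowest in GXNI 3, which was highest for Ccl2. Injured hearts lay above all sham hearts in 2 cases and below all of them in 3. Its neighbour Ccl12 had the same TATA box letters but not the same order of libraries.

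Ccl3 and Ccl4, the macrophage inflammatory proteins 1 alpha and 1 beta, of which Ccl3 acts on Ccr1, had the lowest levels per exon length of the 10 genes in sham hearts. Ccl3 (ENSMUSG00000000982, chr11:83647844-83649355) had 5, 12 and 8 counts in sham, 91, 1 and 44 in MIRI, and 1, 66 and 84 in GXNI hearts. Ccl4 (ENSMUSG00000018930, chr11:83662584-83664683) had 7, 14 and 10 counts in sham, 108, 3 and 76 in MIRI, and 8, 36 and 137 in GXNI hearts. In CPM, Ccl4 ranged from 0.376 to 0.693 in sham hearts and from 0.178 to 7.95 in injured hearts. The same 4 injured hearts lay above all sham hearts for both genes. At 1 count, Ccl3 in MIRI 2 and GXNI 1 cannot be told from absent.

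Ccl6 and Ccl9 were the only members above every sham heart in all 6 injured hearts. The share of all genes with this pattern was not worked out, so whether it is unusual cannot be judged. Ccl6 is the C10 chemokine and Ccl9 is macrophage inflammatory protein 1 gamma. Both are ligands of Ccr1 found in rodents and made steadily by resting macrophages and myeloid cells. Ccl6 (ENSMUSG00000018927, chr11:83587882-83593087) stood at 53.3, 41.2 and 47.7 CPM in sham, 225, 69.7 and 343 CPM in MIRI, and 122.7, 132 and 207 CPM in GXNI hearts. Ccl9 (ENSMUSG00000019122, chr11:83572919-83578636) stood at 31.1, 22.9 and 26.6 CPM in sham, 95.7, 40.5 and 190.2 CPM in MIRI, and 70.1, 81.7 and 118 CPM in GXNI hearts. MIRI 2 was the lowest injured heart for both genes and MIRI 3 the highest. An antisense gene overlapping Ccl6, E230016K23Rik, had at most 35 counts in a library.

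The receptors were low in different numbers of injured hearts. Ccr1 (ENSMUSG00000025804, chr9:123962124-123968692) stood at 6.93, 5.25 and 7.25 CPM in sham, 65.3, 4.33 and 77.0 CPM in MIRI, and 5.89, 21.2 and 84.8 CPM in GXNI hearts. Ccr2 (ENSMUSG00000049103, chr9:124101950-124113557) stood at 15.9, 10.2 and 18.4 CPM in sham, 39.4, 4.39 and 38.4 CPM in MIRI, and 9.34, 17.4 and 39.8 CPM in GXNI hearts. Both receptors were highest in GXNI 3 and lowest in MIRI 2, where each was below every sham heart. For Ccr2, GXNI 1 was also below every sham heart and GXNI 2 lay within their range.

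**Figure D1:**
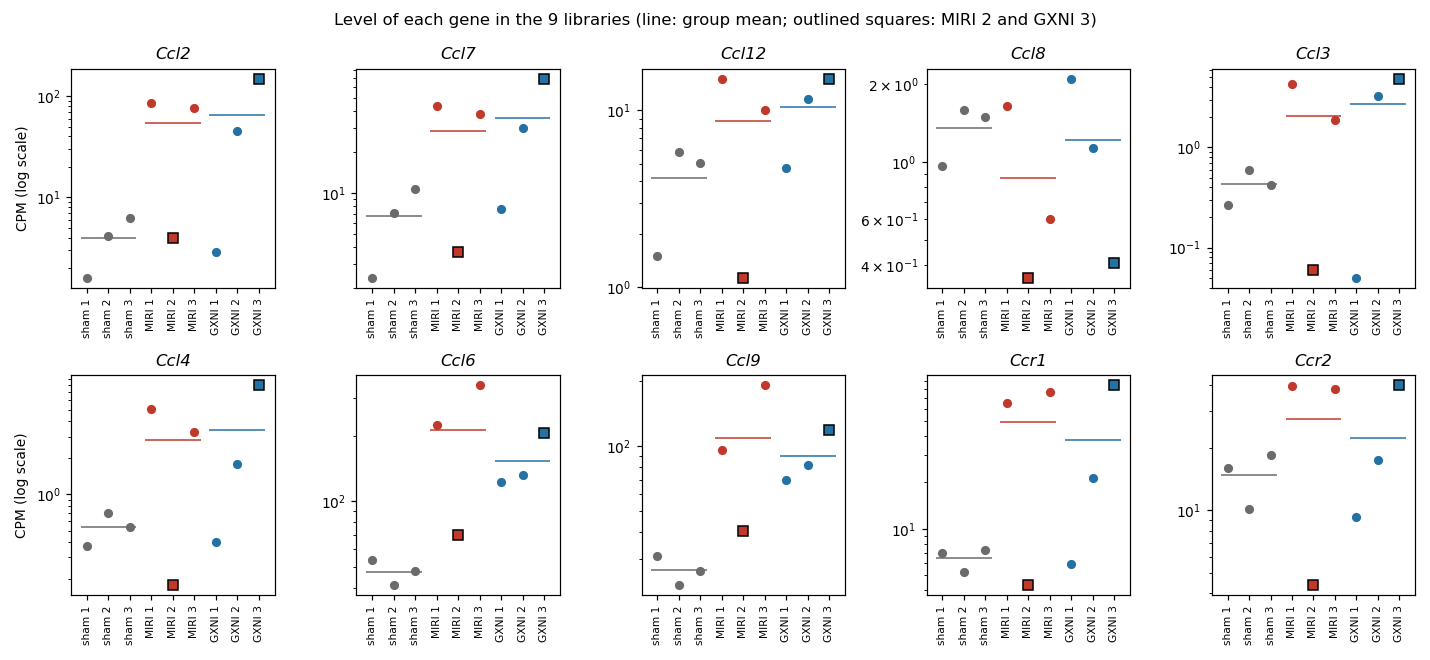
CPM on a log axis (y) in the 9 libraries (x) for each of the 10 genes. Points are libraries, lines are group means and outlined squares are MIRI 2 and GXNI 3. For Ccl6 and Ccl9 all 6 injured hearts sit above the 3 sham hearts. For Ccl2, Ccl3, Ccl4, Ccl7, Ccl12 and Ccr1, 4 injured hearts do, with MIRI 2 and GXNI 1 near or below sham level.

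Per exon length, Ccl6 was the most abundant ligand in every library except GXNI 3. There Ccl2 stood at 131 CPM per kb of exon and Ccl6 at 115. In CPM, not divided by length, Ccl6 was above Ccl2 in GXNI 3 too, at 207 against 149. Exon length was that of all annotated exons of a gene merged, so these levels depend on the annotation. The 8 ligands summed to 49.9 to 67.8 CPM per kb in sham hearts. They summed to 330 in MIRI 1, 63.4 in MIRI 2 and 395 in MIRI 3, and to 117, 208 and 419.5 in GXNI 1 to 3. Ccl6 made up 27.5% to 61.3% of that sum, Ccl2 2.18% to 31.2% and Ccl8 0.190% to 5.27%. The share of Ccl2 was 16.8% to 31.2% in MIRI 1, MIRI 3, GXNI 2 and GXNI 3, and 2.18% to 8.08% in the sham hearts, MIRI 2 and GXNI 1. The mean levels in sham hearts ran, from high to low, Ccl6 (26.4 ± 3.38 CPM per kb), Ccl9 (8.83 ± 1.35), Ccl7 (8.38 ± 5.20), Ccl12 (7.70 ± 4.31), Ccl2 (3.53 ± 2.04), Ccl8 (2.64 ± 0.65), Ccr1 (2.28 ± 0.38), Ccr2 (2.20 ± 0.62), Ccl4 (0.81 ± 0.24) and Ccl3 (0.56 ± 0.21; SD, n = 3 each). Only the steps from Ccl6 to Ccl9 and from Ccr2 to Ccl4 were wider than the SDs on both sides added together.

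**Figure D2:**
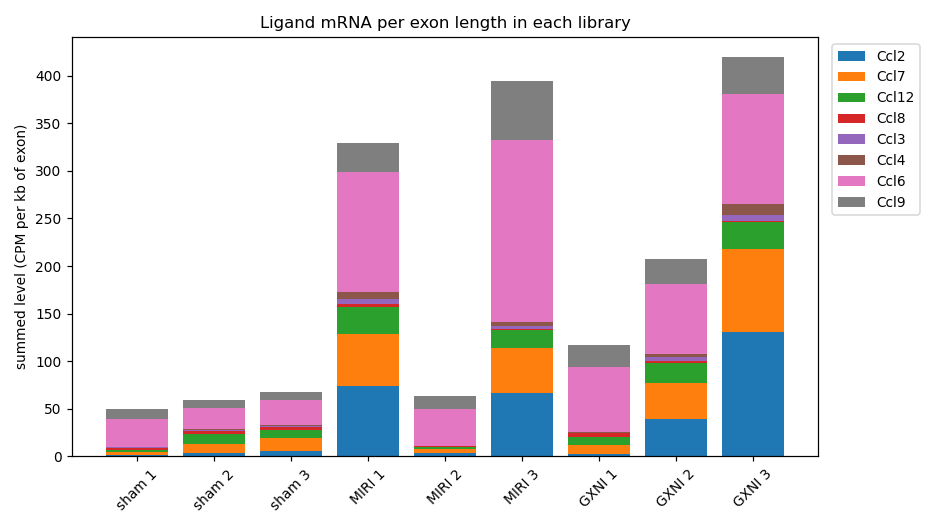
Stacked bars of the 8 ligands in CPM per kb of exon (y) in each of the 9 libraries (x). The bars reach 49.9 to 67.8 in sham hearts, 63.4 in MIRI 2 and 117 in GXNI 1, and 208 to 419.5 in the other 4 injured hearts, where Ccl2 and Ccl7 take a visible part.

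Ratios within a library do not depend on its depth. The ratio of Ccl6 to Ccl9 per exon length lay between 2.74 and 3.98 in all 9 libraries, while each gene alone spanned 8.33 and 8.30 times. Centred on their own means, their log2 CPM differed by 0.086 on average over the libraries, the smallest value of all 45 pairs of members. The next was 0.383, for Ccl4 and Ccr1, the receptors Ccr1 and Ccr2 had 0.818, and the largest was 2.45, for Ccl2 and Ccl8. The neighbours Ccl8 and Ccl12 had 1.24, and Ccl2 and Ccl12 had 1.32. The ratio of Ccl2 to Ccl7 was 0.412 to 0.480 in sham hearts, 1.37, 0.761 and 1.39 in MIRI 1 to 3, and 0.269, 1.06 and 1.51 in GXNI 1 to 3. The ratio of Ccl2 to its receptor Ccr2 was 0.600 to 2.45 in sham hearts, 12.8, 5.38 and 11.7 in MIRI, and 1.84, 15.3 and 22.2 in GXNI hearts. MIRI 2, at sham level for Ccl2, was thus above the sham hearts in this ratio, since its Ccr2 was low.

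**Figure D3:**
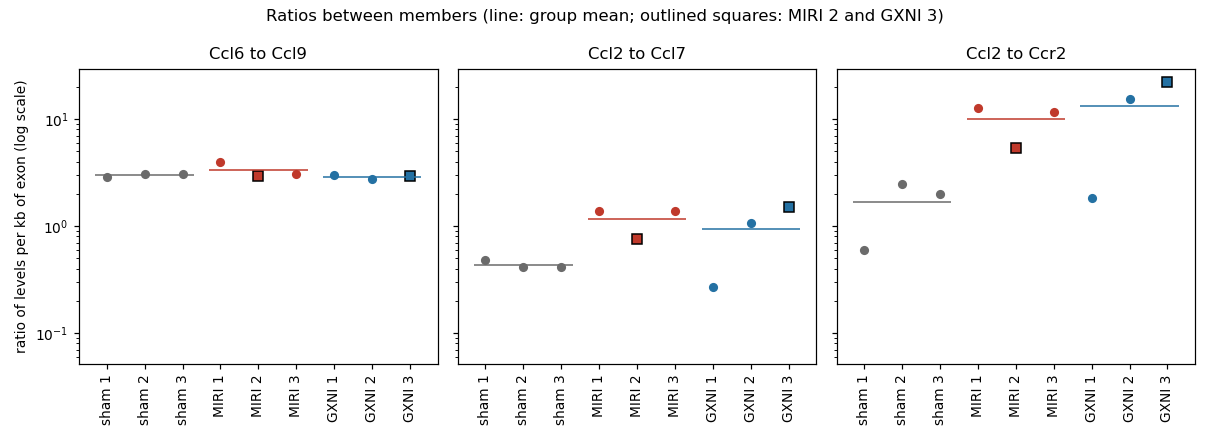
Ratios of levels per kb of exon on a log axis (y) in the 9 libraries (x) for Ccl6 to Ccl9, Ccl2 to Ccl7 and Ccl2 to Ccr2. Points are libraries, lines are group means and outlined squares are MIRI 2 and GXNI 3. Ccl6 to Ccl9 stays between 2.74 and 3.98, while Ccl2 to Ccr2 runs from 0.600 to 22.2.

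The first question was what injury did to these genes, whatever the treatment. Over the 6 injured and 3 sham hearts, Ccl6 and Ccl9 rose. Ccl6 had a log2 fold change of 1.95 (SE 0.45, unadjusted p = 0.00153, adjusted p = 0.085, edgeR's quasi-likelihood test), or 3.87-fold. Ccl9 had 1.89 (SE 0.43, unadjusted p = 0.00134, adjusted p = 0.085 by edgeR), or 3.70-fold. A call asked for a change of 1.5 times or more with an unadjusted p no higher than 0.01, and 2 of 10 members were called higher where 5.52% of 15207 genes tested were. After Benjamini-Hochberg adjustment 0 of 10 passed 0.05 in edgeR's test and 5 did with DESeq2, and 6 had an unadjusted p under 0.05 in edgeR. The shares of all genes at these other thresholds were not worked out, so whether such counts are unusual cannot be judged. All 10 passed the filter on low counts, here and in the comparisons under the deposited labels that follow. The median log2 fold change of the 10 was 2.10, beside 0.01 for all genes tested.

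Ccl2 had the largest estimate, 3.90 (SE 1.27, unadjusted p = 0.0119 by edgeR, adjusted p = 0.103), and was not called. Ccr1, Ccl4, Ccl3 and Ccl7 had estimates of 2.73, 2.52, 2.46 and 2.26, with standard errors of 0.88 to 1.19. Ccl12 had 1.22, Ccr2 0.74 and Ccl8 -0.37, with standard errors of 0.55 to 0.71. These estimates depended on single libraries. Without MIRI 2, 6 members were called higher (9.67% of all genes), namely Ccl2, Ccl4, Ccl6, Ccl7, Ccl9 and Ccr1. Without GXNI 1, 4 members were called (9.57% of all genes). In bulk tissue more cells of a type and more RNA per cell cannot be told apart.

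The second question was the effect of injury in untreated mice. Under the deposited labels, Ccl2, Ccl6 and Ccl9 were higher in MIRI than in sham hearts. Ccl2 had a log2 fold change of 3.78 (SE 1.06, unadjusted p = 0.0091, adjusted p = 0.100 by edgeR), Ccl6 had 2.17 (SE 0.52) and Ccl9 had 2.02 (SE 0.52). These were 3 of 10 members, where 6.15% of the 14644 genes tested were called higher, and 0 were lower. The other estimates ran from 2.93 for Ccr1 (SE 0.89, unadjusted p = 0.0135, adjusted p = 0.111 by edgeR) down to 0.89 for Ccr2 and -0.61 for Ccl8. By adjusted p, 0 of 10 passed 0.05 in edgeR and 4 did with DESeq2, and 5 had an unadjusted p under 0.05 in edgeR. The shares of all genes at these thresholds were not worked out. The calls depended on single libraries, since leaving out any sham heart, MIRI 1 or MIRI 3 left 0 of 10 called. The share of all genes called in those fits was not worked out. Leaving out MIRI 2 instead gave 9 of 10, all but Ccl8 (16.9% of all genes).

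With MIRI 2 and GXNI 3 exchanged, the same comparison called 9 of 10 members higher, all but Ccl8, where 19.2% of the 14853 genes tested were called higher. All 9 also had an adjusted p under 0.05 in edgeR, a threshold at which the share of all genes was not worked out. Ccl2 had 4.68 (SE 0.45), Ccr1 3.55 (SE 0.16), Ccl4 3.31 (SE 0.41), Ccl3 3.06 (SE 0.46) and Ccl7 2.91 (SE 0.45). Ccl6 and Ccl9 had 2.44 and 2.32, Ccl12 had 1.69 and Ccr2 1.40. Ccl8 had -0.59 (SE 0.49, adjusted p = 0.340 by edgeR).

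The third question was whether the injection altered these genes in injured hearts. Under the deposited labels no difference was detectable: 0 of 10 members were called higher, as were 0% of the 14762 genes tested, and 0 were called lower, beside 0.0203% of all genes. Estimates ran from -0.45 for Ccl6 to 0.49 for Ccl8, with standard errors of 0.53 to 1.39. For Ccl2 the estimate was 0.27 (SE 1.37, unadjusted p = 0.850 by edgeR). By edgeR and by DESeq2, 0 of 10 had an unadjusted p under 0.05. Standard errors of this size leave room for changes of several fold in either direction.

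With the labels exchanged, 5 of 10 members were lower in GXNI than in MIRI hearts, where 10.7% of all genes were. Ccr1 had -2.84 (SE 0.54, adjusted p = 0.0171), Ccl4 -2.74 (SE 0.68), Ccr2 -1.90 (SE 0.41), Ccl6 -1.24 (SE 0.28) and Ccl9 -1.06 (SE 0.31, adjusted p = 0.0438, edgeR's quasi-likelihood test). Ccl2 had -2.56 (SE 0.93, unadjusted p = 0.0250, adjusted p = 0.077 by edgeR) and was not called, nor were Ccl7 at -1.86, Ccl3 at -1.67 and Ccl12 at -1.18. Ccl8 had 0.45 (SE 0.69). The signs of Ccl2, Ccl3, Ccl4, Ccl7 and Ccl12 therefore depended on which grouping was used. With both libraries left out, which leaves MIRI 1 and MIRI 3 against GXNI 1 and GXNI 2, 3 of 10 members were lower, where 3.47% of all genes were. They were Ccr1 at -2.38 (SE 0.55), Ccr2 at -1.53 (SE 0.31) and Ccl6 at -1.14 (SE 0.24), each with an adjusted p = 0.188 by edgeR. This last choice was made after the values were seen.

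The fourth comparison set the treated hearts beside sham. Under the deposited labels Ccl6 and Ccl9 were higher, with log2 fold changes of 1.71 and 1.75 (SE 0.24 each, adjusted p = 0.205 by edgeR). These were 2 of 10 members, where 2.67% of the 14695 genes tested were called higher. Ccl2 had the largest estimate, 4.04 (SE 1.27), without being called. Without GXNI 1, 7 of 10 members were called higher, all but Ccl8, Ccl12 and Ccr2 (10.7% of all genes). With the labels exchanged, Ccl6 and Ccl9 were again the members called, at 1.19 (SE 0.24) and 1.26 (SE 0.26), among 9 members that passed the filter, where 2.16% of all genes were called higher. Ccl3 did not pass it. Ccl2 then had 2.11 (SE 1.05) and Ccr2 -0.50 (SE 0.45). The comparisons share their sham or their MIRI libraries, so their values are not independent of each other.

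**Figure D4:**
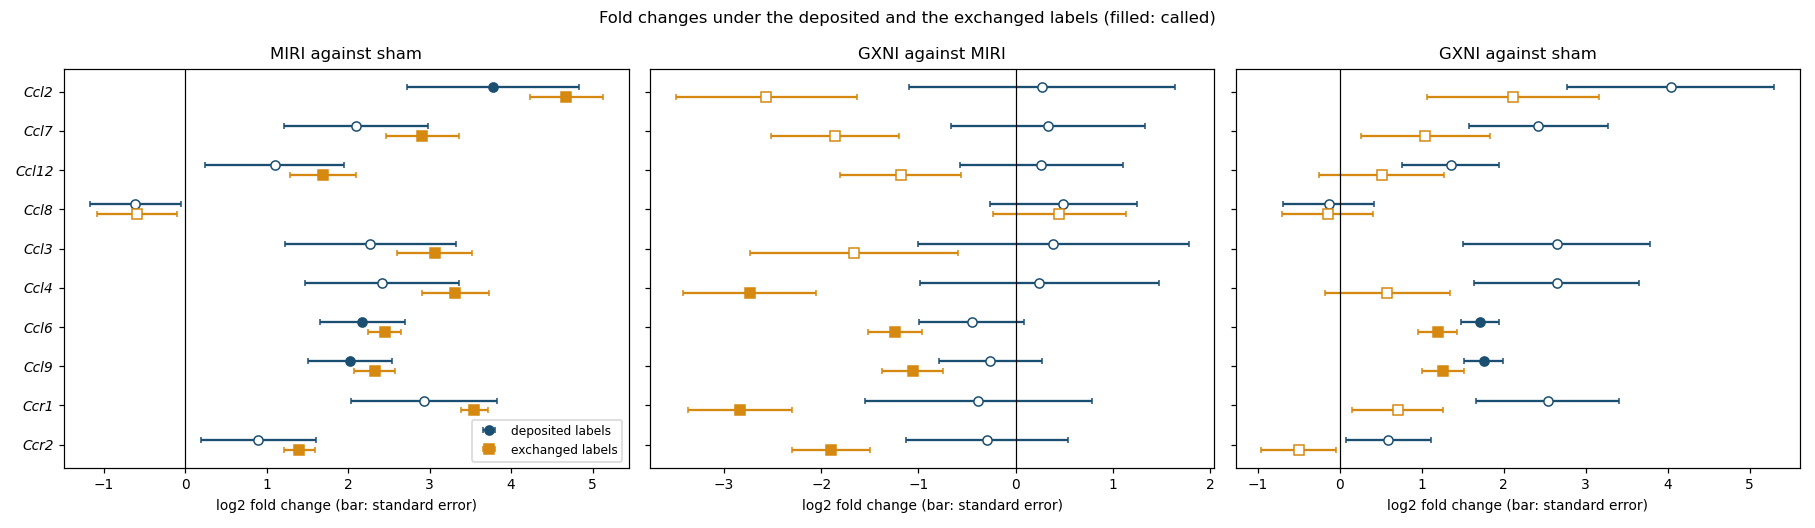
Log2 fold change (x, bars are standard errors) of the 10 genes (y) in MIRI against sham, GXNI against MIRI and GXNI against sham. Circles are the deposited labels, squares the labels with MIRI 2 and GXNI 3 exchanged, and filled symbols passed the call. In GXNI against MIRI the circles lie between -0.45 and 0.49 and none is filled, while 5 squares are filled between -2.84 and -1.06.

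The other genes of the system were read from lists made by function. Of 15 other CC ligands in the table, 7 were tested in the 6 injured against the 3 sham hearts. Among them 2 were higher, where 5.52% of all genes were. Ccl24, an attractant of eosinophils, had 2.26 (SE 0.43), and stood at 0.53 to 1.09 CPM in sham and 2.20 to 6.60 CPM in injured hearts, with no overlap. Its sham levels rest on 13, 22 and 10 counts, and the share of all genes without overlap was not worked out. Ccl17, which acts on Ccr4, had 0, 2 and 2 counts in sham hearts and 3 to 64 in injured hearts. Set against a floor of 3 counts in each sham library, the mean of the MIRI hearts was at least 10.8-fold higher and that of the GXNI hearts at least 5.07-fold higher under the deposited labels. With the labels exchanged these bounds were 12.7-fold and 3.22-fold. The bounds are for group means: MIRI 2, with 3 counts, was itself at the floor, and GXNI 1 had 6 counts. The median of the 7 was 0.92, beside 0.01 for all genes. In MIRI against sham hearts, 1 of 5 tested was higher under the deposited labels, where 6.15% of all genes were. It was Ccl24 at 2.45 (SE 0.48). The exchange gave 4 of 7 higher, where 19.2% of all genes were, and these were Ccl17, Ccl22, Ccl24 and Ccl11. Ccl5, the widely studied RANTES, stood at 1.53 to 2.08 CPM in sham hearts and at 0.12 to 9.46 CPM in injured hearts.

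In GXNI against MIRI hearts under the deposited labels, 0 genes were called by edgeR or DESeq2 in any of the 5 lists of other CC ligands, other CC receptors, monocyte growth and fractalkine genes, signaling genes and regulators, and 0 had an unadjusted p under 0.05 with either tool. The values with the labels exchanged are given list by list. There 1 of 7 other CC ligands was lower, Ccl22 at -2.98 (SE 0.84), where 10.7% of all genes were.

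Of 12 other CC receptors, 7 were tested in the 6 injured against the 3 sham hearts, and 0 were called by edgeR. There 1 had an unadjusted p under 0.05 in edgeR, and DESeq2 called 1 higher. In MIRI against sham hearts under the deposited labels 0 of 6 were called by edgeR or DESeq2, with 0 at an unadjusted p under 0.05 in edgeR and 1 in DESeq2. With the labels exchanged, 2 of 6 were higher (19.2% of all genes) and 1 was lower (16.6% of all genes). Among the higher was Ccr7, which guides dendritic cells to lymph nodes, with a log2 fold change of 2.92 (SE 0.44). The lower one was Ackr4, a scavenging receptor, at -2.40 (SE 0.53). The exchanged labels also gave 2 of 7 lower in GXNI than in MIRI hearts (10.7% of all genes), among them Ccr7 at -1.95 (SE 0.50).

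Among 8 genes of monocyte growth factors and fractalkine signaling, Cx3cr1, the fractalkine receptor of patrolling monocytes and resident macrophages, was the one called by edgeR in injured against sham hearts, at -1.21 (SE 0.37), where 2.85% of all genes were lower. DESeq2 called 1 of the 8 lower and 2 higher. It stood at 2.63 to 8.68 CPM in sham and 1.53 to 3.15 CPM in injured hearts. Csf2, the gene of the growth factor GM-CSF, had 0 counts in all 3 sham hearts, in MIRI 2 and in GXNI 1, and 6 to 43 counts in the other 4 injured hearts. Those are the same 4 hearts in which Ccl2 was high. In MIRI against sham hearts under the deposited labels, 0 of 7 tested were called by edgeR or DESeq2, with 1 at an unadjusted p under 0.05 in edgeR. Under the exchanged labels 3 of 8 were higher (19.2% of all genes), among them Csf2rb at 3.16 and Csf2ra at 1.44. In GXNI against MIRI hearts, where 0 of 8 were called under the deposited labels, 5 of the 8 were lower under the exchanged labels (10.7% of all genes), among them Csf2rb at -2.22, Csf2ra at -1.14, Cx3cl1 at -1.05 and Csf1 at -0.89.

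Of 14 genes that carry or end the signal of chemokine receptors, 1 was higher in injured against sham hearts, beside 5.52% of all genes. It was the receptor kinase Grk5 at 0.95 (SE 0.22). In MIRI against sham hearts under the deposited labels, 1 of 14 was higher, again Grk5 at 0.99 (SE 0.13), where 6.15% of all genes were, and DESeq2 called 4. With the labels exchanged, 8 of 14 were higher in MIRI than in sham hearts, where 19.2% of all genes were. The largest changes were Rgs16 at 3.55 and Rgs1 at 2.22, which switch off G proteins, and Pik3cg at 1.57. In GXNI against MIRI hearts, where 0 of 14 were called under the deposited labels, the exchanged labels gave 6 of 14 lower (10.7% of all genes) and 1 higher, Rgs2 at 1.39 (8.56% of all genes).

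Of 5 regulators that decay chemokine mRNA or restrain NF-kappa-B, 0 were called by edgeR in injured against sham hearts, with 3 at an unadjusted p under 0.05, 3 called higher by DESeq2 and a median of 0.99. In MIRI against sham hearts under the deposited labels 0 of 5 were called by edgeR, with 3 at an unadjusted p under 0.05 and 3 called higher by DESeq2. Under the exchanged labels all 5 (Tnfaip3, Nfkbiz, Zc3h12a, Nfkbia and Zfp36) were higher in MIRI than in sham hearts, at 1.07 to 2.68, where 19.2% of all genes were. In GXNI against MIRI hearts 0 of 5 were called under the deposited labels, and all 5 were lower under the exchanged labels, at -2.12 to -0.81, where 10.7% of all genes were.

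Marker levels of the cells in the tissue differed between libraries. The 12 monocyte and macrophage markers, all found, summed to 426 to 534 CPM in sham hearts and 307 to 969 CPM in MIRI hearts, lowest in MIRI 2. They summed to 500 to 895 CPM in GXNI hearts, highest in GXNI 3, with GXNI 1 and GXNI 2 within the sham range. Ly6c2, which defines the inflammatory monocyte, stood at 2.57 to 5.27 CPM in sham hearts, 0.18 CPM in MIRI 2, 1.95 CPM in GXNI 1 and 11.5 to 76.5 CPM in the other 4 injured hearts. The list was not uniform: 9 of the 12 had a log2 fold change above 0 in injured against sham hearts. C1qa stood at 91.5 to 111 CPM in sham hearts and 84.0, 88.0, 67.3 and 47.8 CPM in MIRI 1, MIRI 3, GXNI 2 and GXNI 3. Ms4a7 stood at 3.49 to 4.26 CPM in sham hearts and 2.11, 3.47, 1.53 and 2.03 CPM in those 4. None of the 12 was at 0 in any library. The 12 neutrophil markers summed to 154 to 205 CPM in sham, 233 to 1051 CPM in MIRI and 627 to 727 CPM in GXNI hearts. Ltf was at 0 in every sham heart, Ngp in MIRI 2, and Camp in sham 1, MIRI 2, GXNI 2 and GXNI 3. A single gene, Lcn2, made up 578 of the 627 CPM in GXNI 1. Without Lcn2, a choice made after the values were seen, the other 11 summed to 29.4 to 57.0 CPM in sham hearts, 26.5 CPM in MIRI 2, 48.6 CPM in GXNI 1 and 204 to 660 CPM in the other 4 injured hearts. The 6 resident macrophage markers summed to 124 to 195 CPM in sham, 125 to 167 CPM in MIRI and 71.2 to 296 CPM in GXNI hearts, highest in GXNI 1. The 8 markers of T and NK cells stayed between 0.891 and 4.26 CPM. The 7 fibroblast markers summed to 1131 to 1380 CPM in sham, 913 to 1142 CPM in MIRI and 699 to 1889 CPM in GXNI hearts. The 5 atrial markers summed to 40.3 to 84.0 CPM in sham, 171 to 667 CPM in MIRI and 55.9 to 729 CPM in GXNI hearts. Nppa alone made up 665 of the 667 CPM in MIRI 3 and 727 of the 729 CPM in GXNI 3. The rest of the list, Myl4, Myl7, Sln and Bmp10, was highest in MIRI 2, at 3.50, 1.78, 1.37 and 0.06 CPM. Myl7 was at 0 in MIRI 1, MIRI 3 and GXNI 3. In the 2 injured hearts at sham level for Ccl2, the 6 mesothelial markers summed to 76.1 CPM in GXNI 1, against 8.94 to 25.1 CPM in the other libraries, and the 6 adipocyte markers to 7.48 CPM in MIRI 2, against 0 to 1.48 CPM in the others. The part that the mix of cells or the piece of heart sampled had in the results was not tested.

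Genes whose pattern over the 9 libraries was nearest to Ccl2 and to Ccr2 were looked for among 13417 genes, by the mean absolute difference of log2 CPM after centring each gene on its own mean. The 5 nearest to Ccl2 were A530064D06Rik (0.386), Gm37347 (0.412), Bcl2a1a (0.416), Acod1 (0.434) and Lilra6 (0.468). Acod1, which makes itaconate in activated macrophages, had 3, 6 and 15 counts in sham, 360, 3 and 155 in MIRI, and 7, 116 and 354 in GXNI hearts. Bcl2a1a has near-identical copies, among which reads may have been split. The 5 nearest to Ccr2 were Bin2 (0.207), Acap1 (0.214), Arid3a (0.239), Ncf1 (0.246) and Rassf5 (0.247). Ncf1, a subunit of the phagocyte NADPH oxidase, had 284, 212 and 210 counts in sham, 695, 98 and 928 in MIRI, and 239, 413 and 651 in GXNI hearts. All these values come from the same 9 libraries and describe them alone.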

How the data were processed

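Per the study's methods, reads with adapters, unknown bases or low quality were discarded, HISAT2 did the alignment and featureCounts the counting, and the authors deposited the raw counts per gene. The submitters' processing notes name the build mm10. Versions, annotation release and strand setting are not given in the sources used here. Of 54532 gene identifiers, 54409 were paired with a GENCODE symbol (GRCm38). Overlapping or antisense genes may therefore share reads.

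The 10 genes and the lists were chosen with earlier results of these data known. Each comparison was fitted on its own libraries with edgeR 4.0.16 in R 4.3.3 (TMM, default low-count filter, quasi-likelihood F test, no covariates). DESeq2 1.42.0 was an alternative. It called 1519 of 29344 genes higher and 677 lower in injured against sham hearts, and 1491 of 27901 higher in MIRI against sham hearts. Shares of all genes were worked out for calls alone, not for an adjusted p or an unadjusted p under 0.05. The SE is the log2 fold change divided by the square root of F. Replicates are separate animals by the study's methods. No 2 libraries agreed within sampling noise (smallest chi-square per degree of freedom 14.4). Fits were tested on simulated counts. Floors of 3 counts cover counting error only, while the SE also takes in the variation between animals within a group.

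The names in the text are all 10 genes, of each other list the called genes (up to 5 with the largest change), and the 5 genes nearest to Ccl2 and to Ccr2. Ccl5, and Csf2 in the comparison of all injured hearts, were added after their values were seen. 1 gene of these lists is not reported here. Columns of fold changes in the study's supplementary tables were used solely to see which libraries stood behind them. Their median absolute difference from the log2 fold changes of the counts was 0.399 over 1715 genes (MIRI against sham) and 0.753 over 1921 genes (GXNI against MIRI) under the deposited labels, and 4.16e-07 and 1.6e-06 with MIRI 2 and GXNI 3 exchanged.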

Additional observations from a re-analysis of the deposited data

How the results depend on the processing

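Each count of members called higher is given for MIRI against sham, GXNI against sham and all injured against sham hearts in that order, the main values being 3, 2 and 2. Of all genes tested, 6.15%, 2.67% and 5.52% were called higher. DESeq2 gave 5, 6 and 6, no filter on low counts gave 6, 6 and 4, and an adjusted p of at most 0.05 gave 0, 0 and 0. Of all genes, DESeq2 called 1491 of 27901, 994 of 27966 and 1519 of 29344 higher. The shares without the filter and at the adjusted p were not worked out. Leaving out libraries gave 0 to 9, 2 to 7 and 2 to 6. The share of all genes was worked out for only some of these fits. The exchanged labels gave 9 in the first and 2 in the second. In GXNI against MIRI hearts, where 0 were lower, they gave 5 lower and leaving out libraries gave 0 to 3, the 3 being without both MIRI 2 and GXNI 3. RLE normalization and a fit over all 9 libraries left the counts within 1.5 times.

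Estimates in GXNI against MIRI hearts changed sign. With the labels exchanged, Ccl2 had -2.56, Ccl3 -1.67, Ccl4 -2.74, Ccl7 -1.86 and Ccl12 -1.18, and Ccr2 had -0.50 in GXNI against sham hearts. Over the fits that left out libraries, GXNI against MIRI hearts gave -1.73 to 0.83 for Ccl2, -0.88 to 1.46 for Ccl3, -1.92 to 0.96 for Ccl4, -1.14 to 0.06 for Ccl6, -1.11 to 0.81 for Ccl7, -0.16 to 1.33 for Ccl8, -0.90 to 0.40 for Ccl9, -0.61 to 0.92 for Ccl12, -2.38 to 0.12 for Ccr1 and -1.53 to 0.07 for Ccr2. GXNI against sham hearts gave -0.77 to 0.26 for Ccl8 and -0.14 to 0.96 for Ccr2, and all injured against sham hearts gave -0.68 to 0.02 for Ccl8. The cause was not tested beyond which library was left out.

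The replicate numbers do not pair the animals: same-numbered MIRI and GXNI hearts deviated together with correlations of -0.513, 0.149 and 0.765 across genes, and not every sample correlated best with its own number. With the replicate number as a block, 2, 5 and 2 members were called higher in the order above and 0 in GXNI against MIRI hearts. The share of all genes called with the block was not worked out, so these counts cannot be set against it. A group size of 3 hearts and few counts for Ccl3, Ccl4 and Ccl8 limit these values.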
